A study of Mus musculus with 9 samples.

Results

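The genes described here are 6 regulators of transcription or RNA, Zfp536, Zfpm2, Elk3, Csrp2, Bcl11a and Khdrbs3, among 55357 Ensembl gene identifiers measured by poly(A) RNA-seq in sorted mouse keratinocytes. They were picked by symbol because their levels were higher in Touchdome than in IFE cells of these same libraries, so that difference is given as a description with no test. All 6 were in the table, and all 6 passed the filter on low counts (about 0.672 CPM in at least 3 libraries). Zfp536 and Zfpm2 passed it through the Touchdome libraries only, and Khdrbs3 through the Touchdome and HF libraries.

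The cells came from back skin of C57BL/6 mice of genotype TNC-CREER; tdTomato at postnatal day 60. All animals of the 3 groups carried the Tenascin-C-driven, tamoxifen-inducible Cre recombinase and its reporter, and all received tamoxifen at 100 µg per g on days 51 and 52, so there was no group without the driver or the drug. Touchdome cells were sorted as positive for EPCAM, integrin α6, SCA1 and the reporter. HF (hair follicle) cells were positive for EPCAM and integrin α6 and negative for SCA1 and the reporter. IFE (interfollicular epidermis) cells were positive for EPCAM, integrin α6 and SCA1 and negative for the reporter. The reporter marks cells that expressed Tnc when tamoxifen was given, and a reporter-negative gate can also hold cells in which the recombinase did not act. Each group had 3 libraries, which the labels do not tie to separate animals, and the p-values reflect spread among libraries that may be partly technical.

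Touch domes are touch-sensing structures of hairy skin, in which specialised basal keratinocytes lie beside Merkel cells and the nerve endings that serve them. Zinc finger, ETS and LIM proteins act as DNA-binding regulators or as adaptors that bring cofactors to promoters, and proteins of the STAR family bind RNA and shape its splicing. Most of these 6 genes are best known from neurons, blood, heart or vessel wall.

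Total expected counts were 9295059 to 28249763 per library, and a count of 0 allows up to 0.114 to 0.316 CPM (3 counts of the scaled library total, counting error only). Tnc, the gene of the driver, averaged 257 ± 48.9 CPM in Touchdome, 50.5 ± 8.71 CPM in HF and 4.79 ± 3.22 CPM in IFE (SD, n = 3 each). The 5 basal keratinocyte markers Krt5, Krt14, Krt15, Trp63 and Col17a1 summed to at least 29900 CPM in every library. On the first principal component of log2 CPM, Touchdome replicate 3 lay at -2.86, apart from Touchdome replicates 1 and 2 at -37.6 and -40.7 and toward HF at 89.2 to 98.7. Its summed hair follicle markers (Cd34, Lhx2, Sox9, Lgr5 and Nfatc1) were 632 CPM, against 250 and 245 CPM in Touchdome replicates 1 and 2, 2760 to 2790 CPM in HF and 175 to 181 CPM in IFE. Elk3, Gata6 and Ccn2 are given with and without this library.

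Promoter sequences were printed to show what the start regions of these genes hold. The RefSeq promoter table used here (build GRCm38.p6, not the build of the counts) matched 3 of the 6 genes, Zfp536, Elk3 and Bcl11a. The 250 bases before each gene's start follow, 5′ to 3′ on the gene's strand, with each match to the GC box letters GGGCGG (either strand), the element bound by Sp and Klf factors, in capitals. The Zfp536 window is chr7:37769753-37770002 (minus strand), the Elk3 window chr10:93311160-93311409 (minus strand) and the Bcl11a window chr11:24080445-24080694 (plus strand).
Zfp536: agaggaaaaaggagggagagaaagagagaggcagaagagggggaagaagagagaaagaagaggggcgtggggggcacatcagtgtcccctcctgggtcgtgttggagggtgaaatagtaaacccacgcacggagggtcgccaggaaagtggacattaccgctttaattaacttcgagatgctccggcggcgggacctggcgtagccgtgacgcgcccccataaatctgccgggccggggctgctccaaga
Elk3: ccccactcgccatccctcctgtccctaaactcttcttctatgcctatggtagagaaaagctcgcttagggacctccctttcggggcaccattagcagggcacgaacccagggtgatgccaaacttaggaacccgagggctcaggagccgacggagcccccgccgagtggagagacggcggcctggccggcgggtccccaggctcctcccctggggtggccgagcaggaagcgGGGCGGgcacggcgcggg
Bcl11a: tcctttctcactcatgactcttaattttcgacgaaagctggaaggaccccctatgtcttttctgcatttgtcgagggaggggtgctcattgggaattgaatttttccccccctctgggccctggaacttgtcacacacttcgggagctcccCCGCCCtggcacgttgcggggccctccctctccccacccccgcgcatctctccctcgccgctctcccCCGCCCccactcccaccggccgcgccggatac
The Zfp536 window held 16 CpG dinucleotides and 58.8% G or C, the Elk3 window 19 and 67.2%, and the Bcl11a window 16 and 62.0%. The median of all 32851 RefSeq windows of the same length was 6 CpG and 52.4% G or C. The GC box was found at 1 place in Elk3, at 2 places in Bcl11a and nowhere in Zfp536, and 32.7% of all windows held it. The letters CCAAT were found at 1 place in Bcl11a (33.8% of all windows) and not in the other two. On either strand, none of the 3 windows held CCGGAA, 1 form of the ETS element that Elk3 and its family bind, which was present in 12.0% of all windows. The same was true of the Gli element searched as CCACCCA, which was present in 8.1% of all windows. It was also true of a GATA element searched as AGATAA, which 10% of all windows held. No window held the TATA box, searched as TATAAA, which 12.4% of all windows held. These matches describe letters in a window and not binding, and shorter or other forms of each element were not searched for.

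The level of each gene was read on 2 scales. CPM at the scaled library size compares libraries for 1 gene, and TPM, which takes transcript length into account, compares genes. In Touchdome, Csrp2 had the highest level of the 6 at 73.2 ± 28.2 TPM, and Bcl11a followed at 53.6 ± 6.66 TPM (SD, n = 3 each). Their ranges overlapped, since Csrp2 spanned 55.93 to 105.74 TPM and Bcl11a 47.09 to 60.41 TPM. The other 4 were low, with Elk3 at 4.30 ± 0.619, Zfp536 at 3.24 ± 0.133, Khdrbs3 at 2.58 ± 1.54 and Zfpm2 at 1.51 ± 0.606 TPM. Of the 15046 genes tested, 85.9% had a lower mean TPM in Touchdome than Csrp2 and 80.0% a lower one than Bcl11a, but 14.4% to 26.6% a lower one than the other 4. The tests given below share their Touchdome or IFE libraries with the comparison on which the genes were picked, so their p-values are not independent of that choice. No test is given for Zfp536 and Zfpm2 in Touchdome against HF or for Khdrbs3 in HF against IFE, since these genes passed the filter only through the groups where they were high.

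**Figure D1:**
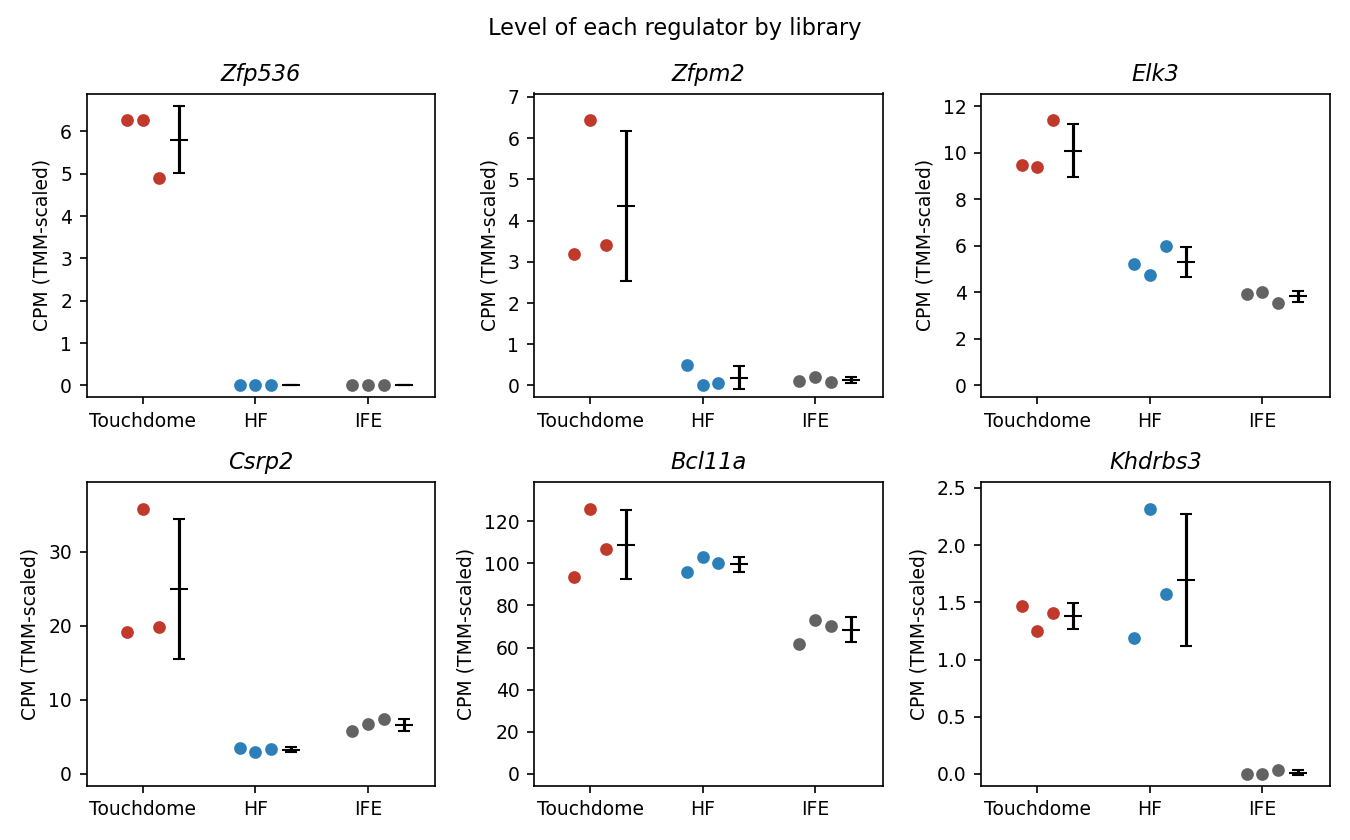
Level of each of the 6 genes in CPM at the scaled library size (y axes, linear, each gene on its own scale) in 3 Touchdome, 3 HF and 3 IFE libraries. Points are libraries and bars are mean ± SD; Zfp536 lies at 0 in all HF and IFE libraries, while the Bcl11a and Khdrbs3 points of Touchdome and HF overlap.

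Zfp536 (ENSMUSG00000043456) encodes a zinc finger protein known from cultured cells as a repressor that restrains neuronal differentiation. Its level was 6.27, 6.26 and 4.90 CPM in replicates 1, 2 and 3 of Touchdome, and 0 in all 3 HF and all 3 IFE libraries. The Touchdome libraries held 98, 70 and 59 counts of it, and no other library held any. The level was at least 90.8-fold higher in Touchdome than in HF (227 counts against a limit of 3 counts over the HF group), and against IFE the same bound was 116-fold, both as descriptions. Between HF and IFE no fold can be given, since both were at 0.

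Zfpm2 (ENSMUSG00000022306) encodes FOG2, a zinc finger cofactor that binds GATA factors and is needed for heart development in mice. Its level was 3.20, 6.44 and 3.40 CPM in the Touchdome libraries, 0.503, 0 and 0.0655 CPM in the HF libraries and 0.105, 0.211 and 0.0757 CPM in the IFE libraries. Every Touchdome library lay above every HF and IFE library, with the highest value in Touchdome replicate 2. The log2 fold change of Touchdome over HF was 4.24 (SE 0.87), as a description. Of the 12 counts in HF, 11 came from HF replicate 1, and without that library the log2 fold change was 6.51. HF and IFE overlapped (log2 fold change of HF over IFE 0.82 ± 0.97, SE), and without HF replicate 1 that value was -1.46. The level was 33.3-fold higher in Touchdome than in IFE, which held 7 counts in all, as a description.

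Elk3 (ENSMUSG00000008398) encodes Net, an ETS factor that joins serum response factor (SRF) on DNA and represses until Ras signalling releases it. Its level was 9.46, 9.39 and 11.4 CPM in the Touchdome libraries, 5.21, 4.74 and 6.01 CPM in the HF libraries and 3.95, 4.0 and 3.56 CPM in the IFE libraries. The 3 groups did not overlap, and Touchdome was the highest and IFE the lowest. Touchdome was higher than HF (log2 fold change 0.92, SE 0.24, adjusted p = 0.0148, edgeR quasi-likelihood test with Benjamini-Hochberg adjustment). The call ended without Touchdome replicate 3, the library nearer to HF (0.82, adjusted p = 0.0580), and with limma on log2(TPM + 1) or log2(TPM + 0.1) (adjusted p = 0.181 and 0.235). HF over IFE was 0.48 ± 0.25 (SE) and did not pass (adjusted p = 0.158), so these neighbours in the order were not told apart by the test. The log2 fold change of Touchdome over IFE was 1.39, as a description.

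Csrp2 (ENSMUSG00000020186) encodes a protein of paired LIM domains that binds the actin cytoskeleton and, in smooth muscle, helps SRF and GATA factors. Its level was 19.1, 35.8 and 19.8 CPM in the Touchdome libraries, 3.56, 2.95 and 3.34 CPM in the HF libraries and 5.79, 6.68 and 7.42 CPM in the IFE libraries. The 3 groups did not overlap, and HF, not IFE, was the lowest. Touchdome was higher than HF (log2 fold change 2.90, SE 0.27, adjusted p = 9.52e-06, edgeR), and the log2 fold change was 2.55 without Touchdome replicate 2, the highest library. HF was lower than IFE (log2 fold change -1.0, SE 0.27, adjusted p = 0.0119). The log2 fold change of Touchdome over IFE was 1.90, as a description.

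Bcl11a (ENSMUSG00000000861) encodes a zinc finger repressor known for silencing fetal globin genes and for roles in B cells and neurons. Its level was 93.7, 126 and 107 CPM in the Touchdome libraries, 95.9, 103 and 100 CPM in the HF libraries and 61.9, 73.2 and 70.3 CPM in the IFE libraries. Touchdome and HF overlapped, and every library of both lay above every IFE library. The log2 fold change of Touchdome over HF was 0.13 ± 0.12 (SE) and did not pass (adjusted p = 0.515, edgeR), which does not show equal levels. HF was higher than IFE (log2 fold change 0.54, SE 0.12, adjusted p = 0.00469). The log2 fold change of Touchdome over IFE was 0.67, as a description, the smallest of the 6.

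Khdrbs3 (ENSMUSG00000022332) encodes T-STAR, also called SLM2, an RNA-binding splicing regulator studied in mouse brain. Its level was 1.47, 1.25 and 1.41 CPM in the Touchdome libraries, 1.19, 2.32 and 1.57 CPM in the HF libraries and 0, 0 and 0.0379 CPM in the IFE libraries. Touchdome and HF overlapped, and IFE held 1 count in all, in replicate 3. The log2 fold change of Touchdome over HF was -0.28 ± 0.63 (SE; adjusted p = 0.806 by edgeR), an error too wide to tell a modest difference in either direction. HF over IFE was 72 counts against 1, a ratio of 92.1-fold with an exact 95% counting interval of 16.0 to 3690. Touchdome over IFE was 54 counts against 1, a ratio of 82.8-fold. Both ratios are descriptions, and the interval holds counting error only, not the spread among libraries. On the TPM scale its libraries spread more, at 4.31, 1.37 and 2.06 TPM in Touchdome and 1.35, 5.05 and 1.59 TPM in HF, and TPM per CPM ranged from 1.01 to 2.93 between libraries.

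The 6 genes took different positions once HF was included. Against HF, Elk3 and Csrp2 were called higher in Touchdome, Bcl11a and Khdrbs3 were not called, and no test is given for Zfp536 and Zfpm2. Of all tested genes, 11.8% were called higher and 12.8% lower, 24.6% in all. Zfp536, Zfpm2, Elk3 and Csrp2, 4 of the 6, had every Touchdome library above every HF library, as did 21.2% of all tested genes. Of the 6, 0 had the reverse, beside 22.2% of all tested genes. The comparison shares the Touchdome libraries in which the genes were picked for high levels, so nothing is read from those counts. In HF against IFE, Bcl11a was called higher and Csrp2 lower, Elk3 was not called, and no test is given for Khdrbs3. Of all tested genes, 17.1% were called higher and 16.0% lower, 33.0% in all. There 3 had every HF library above every IFE library (Elk3, Bcl11a and Khdrbs3; 24.6% of all tested genes) and 1 the reverse (Csrp2; 23.0%). That comparison shares the IFE libraries of the same choice, and nothing is read from those counts either. In Touchdome against IFE, the difference on which the 6 were picked and in which their libraries did not overlap, 1.22% of all tested genes were called higher and 0.0798% lower, and 8.32% had all Touchdome libraries above and 6.25% all below. Among Touchdome libraries, replicate 2 was the highest for Zfpm2, Csrp2 and Bcl11a, replicate 3 for Elk3 and replicate 1 for Zfp536 and Khdrbs3. The SD within Touchdome was 8.23% of the mean for Khdrbs3 and 41.7% for Zfpm2, the extremes of the 6. In such sorted populations, more cells with the transcript and more transcript per cell cannot be told apart.

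Each gene has close family members, and these were set beside it. They are Zfp516, Zfpm1 (FOG1), Elk1 and Elk4, Csrp1 and Csrp3, Bcl11b, and Khdrbs1 (Sam68) and Khdrbs2. Csrp3, a muscle gene, and Khdrbs2, a brain gene, had 0 counts in all 9 libraries. Of the other 7, 0 were called between Touchdome and IFE by edgeR or DESeq2 or by limma on log2(TPM + 1) (1 at an unadjusted p under 0.05), with log2 fold changes of -0.36 to 0.02. Of all tested genes, 1.30% were called there by edgeR, so nothing is read from 0 of 7. Most of these family members were abundant: Csrp1 averaged 291 ± 29.3 TPM in Touchdome against 73.2 ± 28.2 TPM for Csrp2, Elk4 77.6 ± 12.3 TPM against 4.30 ± 0.619 TPM for Elk3, and Khdrbs1 71.9 ± 9.31 TPM against 2.58 ± 1.54 TPM for Khdrbs3. Zfpm1 stood at 31.9 ± 4.54 TPM and Zfp516 at 14.9 ± 3.68 TPM in Touchdome, both above Zfpm2 and Zfp536.

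Bcl11b, known as Ctip2 and as a regulator of T cells and of mouse epidermis, was the 1 family member called in the other comparisons. Its level was 347, 350 and 316 CPM in the Touchdome libraries, 170, 185 and 172 CPM in the HF libraries and 413, 370 and 393 CPM in the IFE libraries. Touchdome was higher than HF (log2 fold change 0.94, SE 0.11, adjusted p = 3.63e-05, edgeR), and HF was lower than IFE (log2 fold change -1.16, SE 0.11, adjusted p = 4.50e-06). Bcl11a was higher in HF than in IFE, so the pair of BCL11 genes was called in opposite directions in that comparison. The 6 other tested family members did not pass between Touchdome and HF (log2 fold changes of -0.24 to 0.20). The 1 of 7 called was 14.3%, beside 24.6% of all tested genes, and in HF against IFE 14.3% beside 33.0%. Nothing is read from these counts. Between HF and IFE, Csrp1 missed the threshold (-0.33 ± 0.12, adjusted p = 0.0528) and passed it with DESeq2, with the replicate number as a block, and without IFE replicate 1 (adjusted p = 0.0455, 0.0394 and 0.0295).

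**Figure D2:**
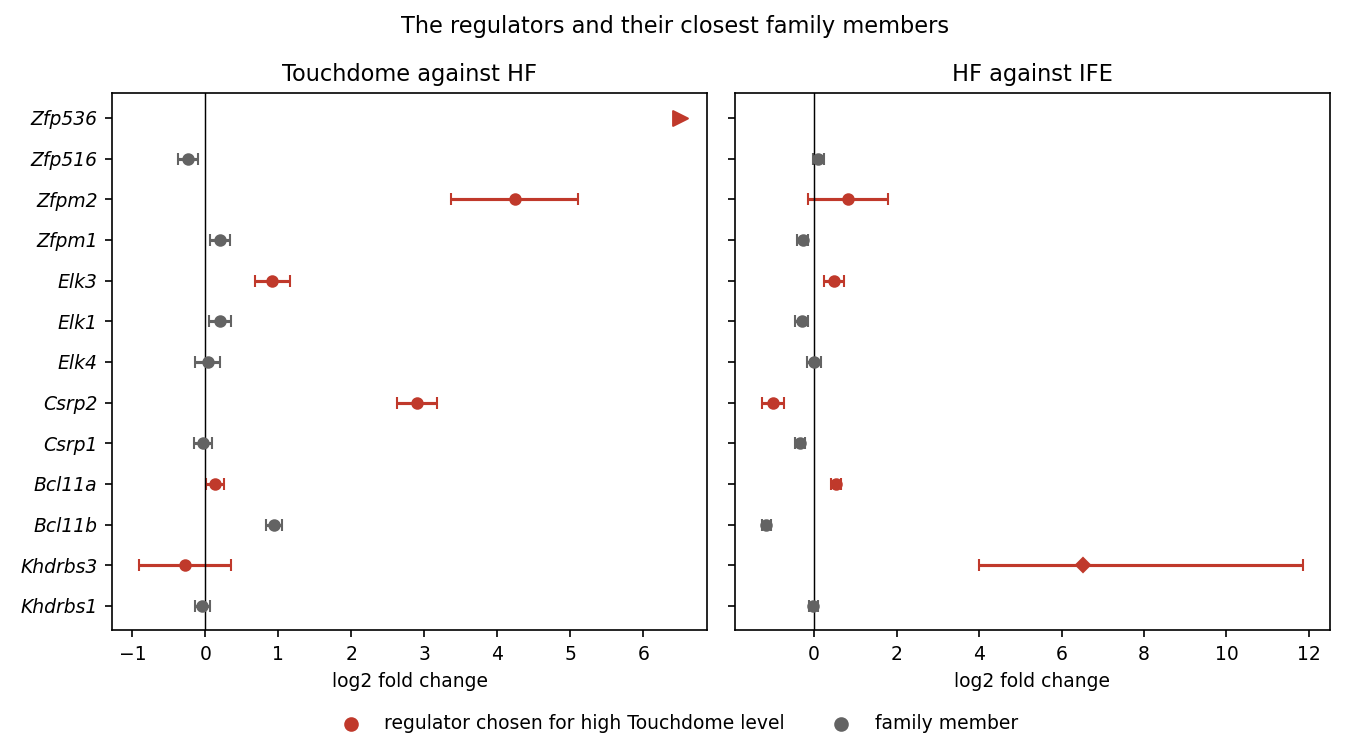
Log2 fold change of Touchdome over HF (left) and of HF over IFE (right) for the 6 genes (red) and their tested family members (grey); circles with bars are edgeR values ± SE, the triangle is the lower bound of Zfp536 and the diamond is the count ratio of Khdrbs3 with its 95% counting interval. Grey points lie near 0 except Bcl11b, at 0.94 on the left and -1.16 on the right.

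The known partners of these proteins were counted next. Over 99 genes of GATA factors, the NuRD, BAF and CtBP or CoREST complexes, SRF and its targets, and splicing regulators, 85 were tested. In Touchdome against IFE, 1 of the 85 was higher and 0 lower by edgeR (1.30% of all tested genes called either way; 11 of the 85 at an unadjusted p under 0.05, 5 called with DESeq2 and 1 with limma on log2(TPM + 1)). Without Touchdome replicate 2, 2 were higher, and without IFE replicate 2, 2 were lower. The median log2 fold change of the 85 was -0.02, beside 0.0048 over all tested genes. The called gene was Ccn2, a matrix protein gene induced through SRF and YAP, at 275 ± 184 CPM in Touchdome against 36.9 ± 8.91 CPM in IFE (log2 fold change 2.90, SE 0.46, adjusted p = 0.023, edgeR; 2.20 without Touchdome replicate 3). Its call ended without any 1 IFE library or without HF replicates 1 or 3 (adjusted p = 0.0518 to 0.15), without the filter on low counts (0.0776) and in a fit of Touchdome and IFE alone (0.0974). Chd4, Smarca4 and Arid1a, which encode remodelling ATPases of NuRD and BAF and a BAF subunit, had log2 fold changes of 0.03, -0.03 and 0.09 between Touchdome and IFE.

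The partners were then counted in the comparisons with HF. In Touchdome against HF, 8 of the 85 were higher and 14 lower, 25.9% of them, beside 24.6% of all tested genes. With 1 library left out, the higher ones were 6 to 11 and the lower ones 9 to 18. The lower ones were 9 without Touchdome replicates 1 or 2 or HF replicates 1 or 3. They were 18 without Touchdome replicate 3 and 16 without IFE replicate 2, and the cause was not tested. In HF against IFE, 15 were higher and 16 lower, 36.5% beside 33.0%. The shares are near those of all genes.

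Among partners of FOG2, 2 of 6 GATA genes were tested. Gata3, a GATA factor of epidermis and hair follicle, measured 677 CPM in Touchdome, 178 CPM in HF and 755 CPM in IFE, higher in Touchdome than in HF (log2 fold change 1.93, SE 0.20, adjusted p = 2.92e-05, edgeR). Gata6 measured 28.1 CPM in Touchdome, 80.1 CPM in HF and 19.5 CPM in IFE, lower in Touchdome than in HF (-1.51, SE 0.44, adjusted p = 0.0403; -2.24 without Touchdome replicate 3). The Gata6 call ended without any 1 library other than Touchdome replicate 3 (adjusted p = 0.0522 to 0.113), without the filter on low counts (0.117) and in a fit of Touchdome and HF alone (0.112). Neither was called between Touchdome and IFE (adjusted p = 0.885 and 0.801), where the log2 fold change of Gata6 was 0.52, and -0.21 without Touchdome replicate 3. Against HF, Touchdome had 1 of 13 NuRD genes called higher and 0 lower (2 higher without Touchdome replicate 2 and 3 without IFE replicate 2). The 1 gene was the chromatin remodeller gene Chd3, at 241 CPM in Touchdome against 114 CPM in HF (1.08, SE 0.15, adjusted p = 0.000227), with 241 CPM in IFE.

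Of 20 tested BAF genes, the complex that BCL11 proteins join, Touchdome had 2 called higher and 2 lower against HF. These were 20% of them, beside 24.6% of all tested genes. With 1 library left out, 1 was higher without Touchdome replicates 2 or 3 or HF replicates 1 or 3, and 3 were lower without IFE replicates 1 or 2. Smarca2, which encodes the ATPase BRM, measured 203 CPM in Touchdome, 439 CPM in HF and 180 CPM in IFE (Touchdome over HF -1.11, SE 0.12, adjusted p = 1.9e-05, edgeR). Dpf1, a subunit known from neurons, measured 1.99, 10.1 and 1.09 CPM in Touchdome, HF and IFE (-2.35, SE 0.52, adjusted p = 0.00484). Of 12 CtBP and CoREST corepressor genes, 1 was called higher (Hmg20b) and 2 lower (Zfp217 and Ctbp2) against HF. The Hmg20b call ended without any 1 library other than IFE replicates 1 and 2 (adjusted p = 0.0505 to 0.108, edgeR). The Zfp217 call ended without Touchdome replicates 1 or 2 or HF replicates 1 or 3 (0.0794 to 0.0975), and the Ctbp2 call without HF replicate 1 (0.0589).

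Around SRF, the partner of Elk3 and Csrp2, Srf itself measured 140 CPM in Touchdome against 182 CPM in IFE and did not pass (-0.38, SE 0.15, adjusted p = 0.366, edgeR). The coactivator gene Mrtfa measured 63.0 CPM in Touchdome, 100.0 CPM in HF and 56.3 CPM in IFE, lower in Touchdome than in HF (-0.67, SE 0.11, adjusted p = 0.000495). Of 8 early response targets, 0 were called higher and 1 lower (Egr3) against HF, and 0 were called between Touchdome and IFE by edgeR (4 at an unadjusted p under 0.05, 1 with DESeq2, 0 with limma). Single libraries moved both counts. Against HF, 5 were lower without Touchdome replicate 3 (Fosb among them, adjusted p = 0.0396, edgeR), 2 without IFE replicate 2, and 0 without Touchdome replicates 1 or 2 or HF replicates 1 or 3, where Egr3 had adjusted p = 0.0574 to 0.0812. Against IFE, 2 were lower without IFE replicate 2, Ier2 and Mcl1 (adjusted p = 0.041 and 0.0238). Of 14 tested cytoskeletal targets, 1 was called higher and 3 lower against HF, 28.6% of them, beside 24.6% of all tested genes. With 1 library left out, 2 were higher without IFE replicate 2, and 4 were lower without Touchdome replicate 3 or IFE replicates 1 or 2. The 3 lower ones in the main fit included Zyx (-0.84, SE 0.12, adjusted p = 0.000265) and Ccn2 (-3.44, SE 0.46, adjusted p = 0.000934; -4.13 without Touchdome replicate 3).

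Against HF, Touchdome had 2 of 13 tested splicing regulators called higher and 4 lower, 46.2% of them, beside 24.6% of all tested genes. The lower ones were 2 without Touchdome replicates 1 or 2, HF replicate 3 or IFE replicate 3. They were 3 without Touchdome replicate 3, HF replicates 1 or 2 or IFE replicate 1, and stayed at 4 without IFE replicate 2. Srrm4, a regulator of neural microexons, measured 7.70 CPM in Touchdome, 24.5 CPM in HF and 5.62 CPM in IFE (-1.67, SE 0.28, adjusted p = 0.000774, edgeR), and Mbnl1, another splicing regulator, measured 232, 405 and 217 CPM (-0.80, SE 0.15, adjusted p = 0.00154). The epithelial regulator Esrp2 measured 187 CPM in Touchdome against 127 CPM in HF (0.55, SE 0.11, adjusted p = 0.00311).

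Markers of other cell types were read beside these genes, because several of the 6 are known from other cells. Fibroblast markers (7 genes, 5 tested) summed to 45.3 to 90.4 CPM in Touchdome, 62.2 to 87.1 CPM in HF and 0.844 to 2.95 CPM in IFE. Within that list, Dcn was at 23.8, 25.3 and 16.4 CPM in the Touchdome libraries, 0, 0 and 0.0655 CPM in HF and 0.316, 0 and 0.0379 CPM in IFE. Every Touchdome library lay above every HF and IFE library for Dcn. Col3a1 was at 2.49, 1.43 and 19.7 CPM in the Touchdome libraries, 0, 0 and 0.786 CPM in the HF libraries and 0, 0.0703 and 0.681 CPM in the IFE libraries, mostly in Touchdome replicate 3. Col1a2 averaged 18.5, 65.2 and 0.297 CPM in Touchdome, HF and IFE. Smooth muscle and pericyte markers (7 genes, 2 tested) summed to 2.75 to 5.64 CPM in Touchdome, 2.39 to 4.57 CPM in HF and 2.80 to 2.92 CPM in IFE, with Des at 0 everywhere. In that list, the pericyte gene Pdgfrb was at 0, 0.179 and 1.99 CPM in the Touchdome libraries, with 3 counts in all HF and 0 in all IFE libraries. Endothelial markers (7 genes, 1 tested) summed to 2.57 to 3.32 CPM in Touchdome, 0 to 2.19 CPM in HF and 0.719 to 0.842 CPM in IFE, and Cdh5 had 27 counts in Touchdome, 2 in HF and 0 in IFE. Pdgfrb, Cdh5 and Sox10 are named after their values were seen, and the rest of their lists need not follow them. The smooth muscle and pericyte sums of the 3 groups overlapped. Of the 2 tested genes of that list and the 1 tested endothelial gene, 0 were called in any comparison, which does not show that such cells were absent. The part of such cells in the levels of Zfp536, Zfpm2, Elk3, Csrp2 and Khdrbs3 was not tested.

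Schwann cell markers (6 genes, 4 tested) summed to 274 to 293 CPM in Touchdome, 161 to 195 CPM in HF and 242 to 309 CPM in IFE, mostly Erbb3 and Mbp. Unlike these sums, Sox10 was lowest in IFE, averaging 0.547, 0.808 and 0.0379 CPM in Touchdome, HF and IFE. Neuron markers (5 genes, 1 tested) summed to 5.18 to 8.22 CPM in Touchdome, 0.105 to 1.78 CPM in HF and 4.21 to 8.82 CPM in IFE, nearly all from Syt1, with Elavl4 at 0 in all 9 libraries. Merkel cell markers (7 genes, 2 tested) summed to 10.6, 1.52 and 1.58 CPM in Touchdome replicates 1, 2 and 3, to 3.37 to 4.0 CPM in HF and to 0.114 to 0.316 CPM in IFE. The defining genes Atoh1 and Sox2 had 0 counts everywhere. The 2 tested genes, Krt8 and Piezo2, had log2 fold changes over IFE of 5.37 to 6.09 in Touchdome and 4.83 to 7.63 in HF, as descriptions. Melanocyte markers (6 genes, 4 tested) summed to 16.0 to 50.4 CPM in Touchdome, 98.6 to 129 CPM in HF and 9.92 to 14.3 CPM in IFE.

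For Bcl11a, a gene of B cells and dendritic cells, B cell markers (5 genes, 0 tested) summed to 0 to 0.166 CPM in Touchdome, 0 to 0.548 CPM in HF and 0 to 0.492 CPM in IFE, with Cd79b, Ms4a1 and Pax5 at 0 in all libraries. Langerhans and dendritic cell markers (6 genes, all tested) summed to 127 to 272 CPM in Touchdome, 54.5 to 351 CPM in HF and 95.8 to 207 CPM in IFE. HF replicate 3 had the 54.5 CPM, against 351 and 340 CPM in HF replicates 1 and 2. The part of such cells in the level of Bcl11a was not tested. T cell markers (5 genes, 2 tested) summed to 4.32 to 6.46 CPM in Touchdome, 0.786 to 1.79 CPM in HF and 1.21 to 3.38 CPM in IFE.

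**Figure D3:**
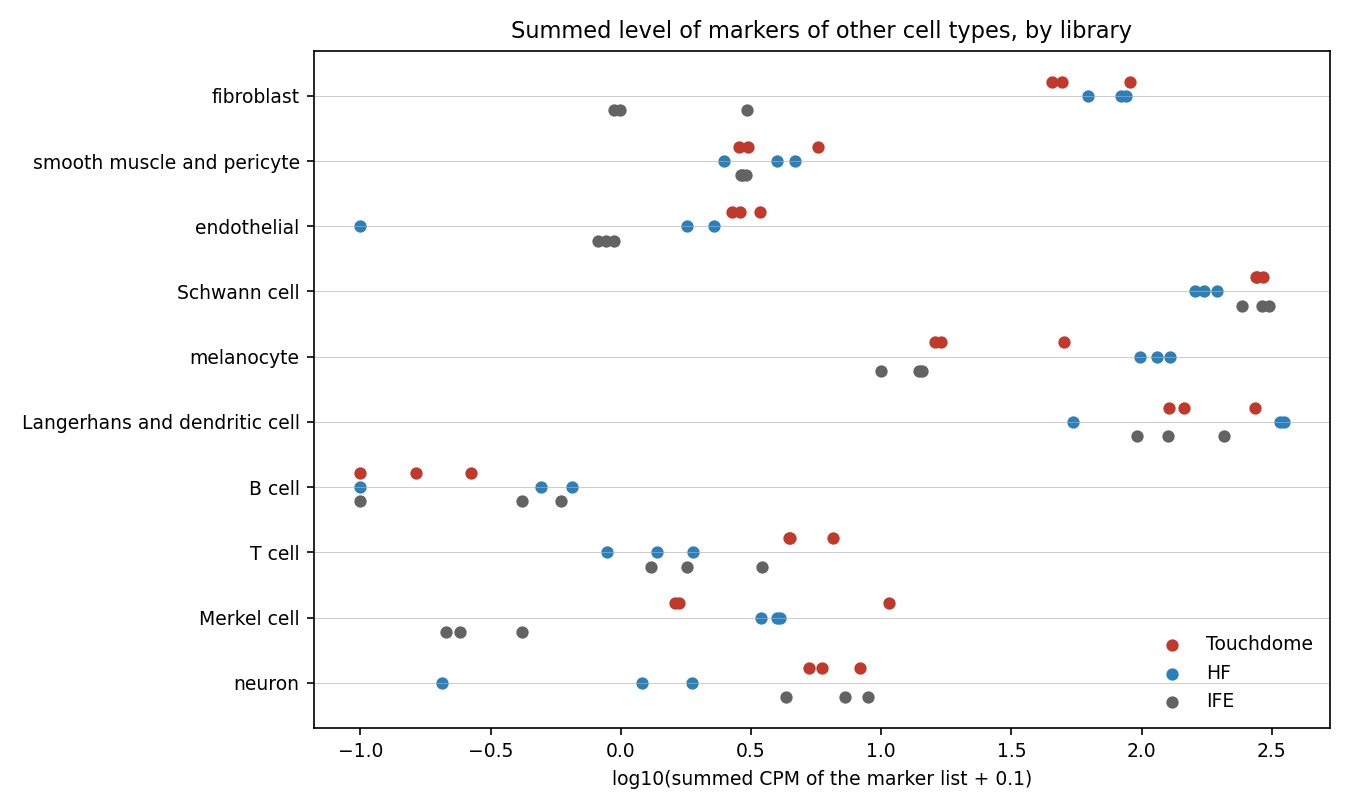
Summed CPM of each marker list on a log10 scale after adding 0.1 (x axis), 1 point per library, for Touchdome, HF and IFE. The fibroblast points of Touchdome and HF lie together at 45.3 to 90.4 CPM, above IFE at 0.844 to 2.95 CPM, and all B cell points lie at 0.548 CPM or less.

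The genes whose profile lay nearest to each of the 6 were found over all 9 libraries, as the smallest root mean square difference of log2 CPM after centring each gene on its own mean. Nearest to Zfp536 was Ildr2 (0.193), with 4.60, 8.17 and 4.57 CPM in Touchdome and 0 in every HF and IFE library, and then Ppp1r1c (0.513), a phosphatase inhibitor gene, and Ccer2 (0.699). Zfp536 and Ildr2 were both at 0 in all HF and IFE libraries. Nearest to Zfpm2 were the noncoding RNA gene Meg3 (0.623), the kallikrein gene Klk13 (0.624) and Lrrtm1 (0.683), a synaptic adhesion gene. Nearest to Csrp2 were the guidance gene Slit1 (0.421) and the angiopoietin gene Angpt1 (0.428). Slit1 averaged 10.1 CPM in Touchdome, 1.12 CPM in HF and 2.03 CPM in IFE, the same order of means as Csrp2, but its HF and IFE libraries overlapped.

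Nearest to Bcl11a were 1500011B03Rik (0.0927), the exchange factor gene Arhgef10l (0.139) and Fdxacb1 (0.148). Nearest to Khdrbs3 were Rgs7 (0.395), a G-protein regulator gene of neurons, Fam69c (0.464) and the metalloprotease gene Tll1 (0.525). Rgs7 averaged 1.60 CPM in Touchdome, 1.86 CPM in HF and 0.0126 CPM in IFE. Nearest to Elk3 were AC130718.2 (0.243), Gm48562 (0.267) and Mroh8 (0.280), all at 2.29 CPM or less in Touchdome. No gene was listed near more than 1 of the 6, but only the 3 nearest were kept for each, so nothing is read from this.

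**Figure D4:**
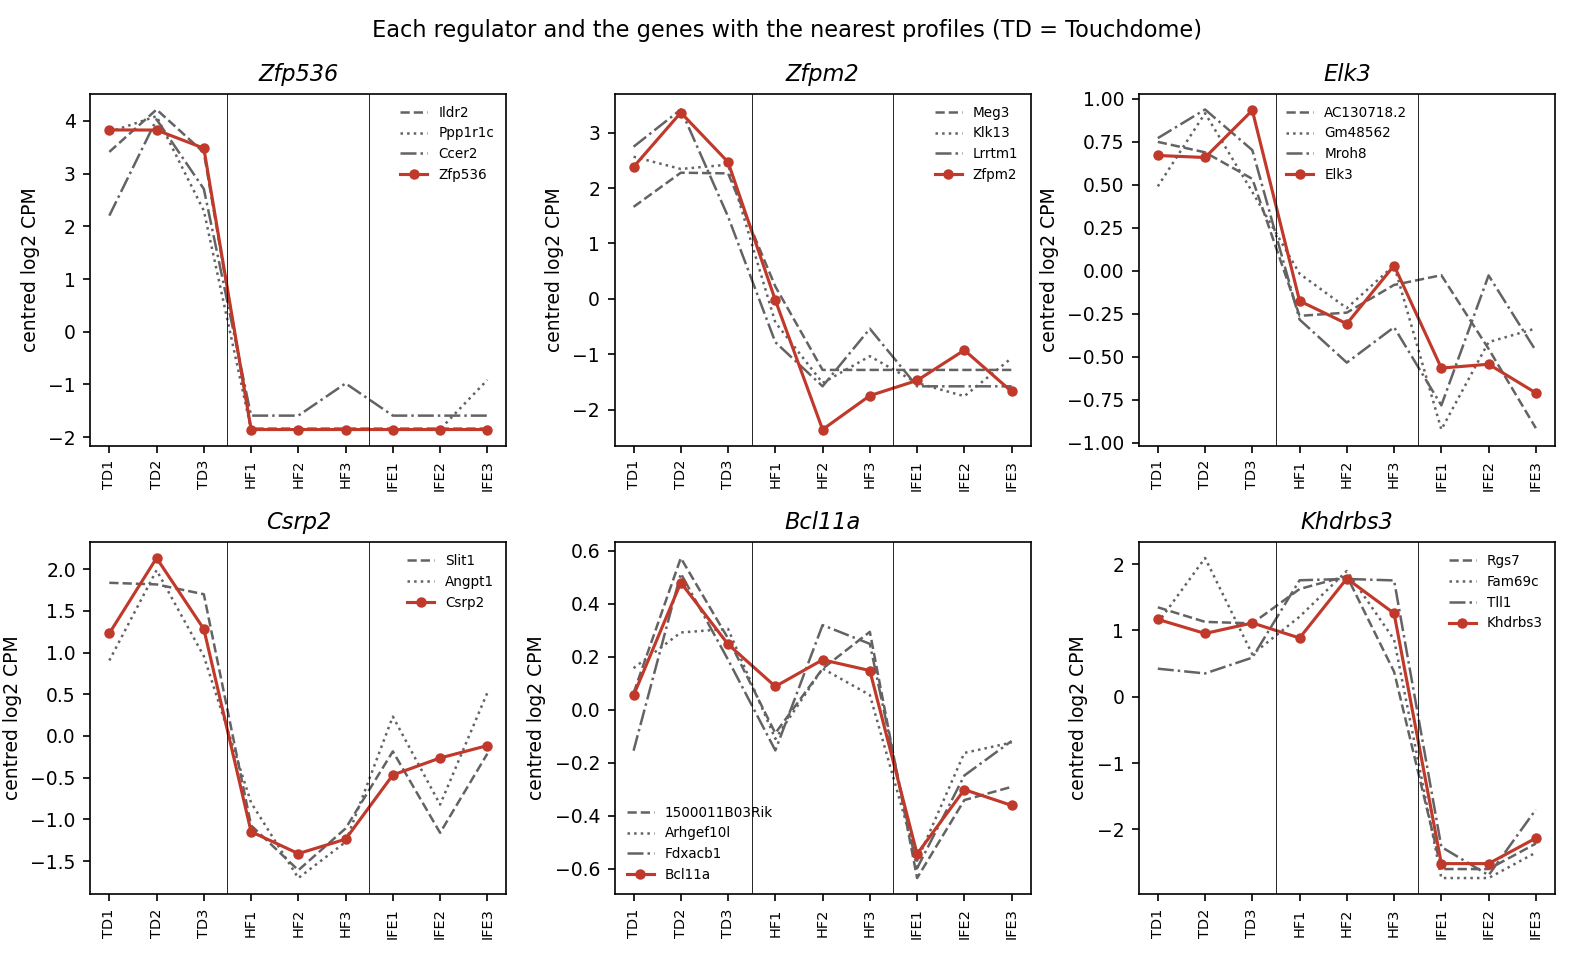
Log2 CPM of each of the 6 genes (red) and its nearest genes (grey, 2 for Csrp2 and 3 for the others), centred on each gene's own mean (y axis), across the 9 libraries (x axis, lines only join the libraries of 1 gene). Zfp536 lies on a flat floor in HF and IFE, Csrp2 is lowest in HF, and Elk3, Bcl11a and Khdrbs3 are lowest in IFE.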

How the data were processed

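RNA-seq was analysed for 9 sorted-cell libraries, 3 each of Touchdome, HF and IFE. Per the labels' protocols, each library used 50 ng of RNA, was poly(A) selected and gave paired reads of 150 nt. The submitters' processing notes name RSEM 1.3.3, STAR 2.7.9a, DESeq2 1.38.2 and build mm39. Their roles, the annotation and the strandedness are not stated there, so overlapping genes are uncertain. The deposited expected counts are estimates made by the authors for each gene without scaling, and the deposited TPM values are the authors' length-scaled abundances, which carry no depth.

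Expected counts were rounded, filtered by filterByExpr (minimum count 10, minimum total 15), scaled by TMM and tested with edgeR 4.0.16 (robust quasi-likelihood test, R 4.3.3), all 9 libraries being fitted together. This left 15046 genes, and p-values were adjusted by Benjamini-Hochberg over all of them at a threshold of 0.05. CPM uses the TMM-scaled library size. The SE is the absolute log2 fold change divided by the square root of F. Alternatives used edgeR with DESeq2 size factors, DESeq2 1.42.0, no filter, 2 groups in the fit, a replicate block, limma 3.58.1 on log2(TPM + 1) and log2(TPM + 0.1), and each library left out. Symbols came from a GENCODE table (52081 of 55357 identifiers). Replicates of a group always differed by more than sampling noise (chi-square per degree of freedom 16.8 to 73.6). The highest values, 73.6 and 69.5, were the pairs that held IFE replicate 2, and the other pairs lay at 16.8 to 26.

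The 6 genes, the gene lists and the rule for named genes were chosen with earlier results of these data known. The rule names the 6 genes, their family members and the gate genes, of each partner list up to 3 called genes per comparison with the smallest p (or the 2 of highest level where none was called), the 3 nearest profiles per gene, and the leading markers of other cell types. Partner genes it names beyond those in the text are given as counts. Results for some genes this rule names are not reported here.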

Additional observations from a re-analysis of the deposited data

How the results depend on the processing

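The Csrp2 call between Touchdome and HF, and the Csrp2 and Bcl11a calls between HF and IFE, kept their direction and their side of the threshold in the alternatives run, which share the libraries on which the genes were picked. No stability is read for Zfp536, Zfpm2 and Khdrbs3, which passed the filter only through the groups where they were high. The Elk3 call between Touchdome and HF ended with limma on log2(TPM + 1) and log2(TPM + 0.1) (adjusted p = 0.181 and 0.235), and ranged over adjusted p = 0.0132 to 0.0580 with 1 library left out. For HF against IFE, genes lower were 2401, against 1209 and 1219 with limma on log2(TPM + 1) and log2(TPM + 0.1). Touchdome against IFE gave 184 genes higher and 12 lower. DESeq2 gave 439 and 73, a fit of just those groups 100 and 5, limma on log2(TPM + 1) 100 and 0, and the replicate block 282 and 67. Genes lower were 49 with no filter and 0 with limma on log2(TPM + 0.1). With 1 library left out, genes higher were 105 to 216 (105 without IFE replicate 1). Genes lower were 4 to 29 (7 without Touchdome replicate 1, HF replicate 3 or IFE replicate 1, 29 without IFE replicate 2 and 4 without IFE replicate 3). The causes of these moves were not tested. The replicate numbers are not stated to pair libraries: deviations of same-numbered libraries from their group means correlated at -0.0257 to 0.203 across genes, and 8 of 9 libraries correlated best with a library of their own number. With the replicate block no call of Elk3, Csrp2 or Bcl11a changed, and Elk3 had adjusted p = 0.0189 (edgeR) between Touchdome and HF. Counts were few for Zfp536 (0 in HF and in IFE), Zfpm2 (12 in HF and 7 in IFE) and Khdrbs3 (1 in IFE). Zfpm2 had no value between HF and IFE with only those groups in the fit, since it failed the filter there.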
